A study of Mus musculus with 4 samples.

Results

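The genes described here are the EGF receptor family, its ligands and a feedback inhibitor of the receptors, measured in mouse intestinal organoids. They were chosen by symbol: Egfr, Erbb2, Erbb3, Egf, Tgfa, Areg, Ereg, Hbegf, Btc and Errfi1. Every probe set that the platform's gene table assigns to 1 of these 10 genes was taken, which gave 21 of the 45101 probe sets and covered 9 of the 10 genes. No probe set is named for Areg in that table, so Areg was not analysed here. Of the 18193 genes with a named probe set, 11392 had a mean level at or above the median probe set (an intensity of 16.9), and 8 of the 9 measured family genes were among them. Egf was the 1 that was not.

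Organoids are 3-dimensional cultures of intestinal epithelium, grown here in Matrigel. The 4 arrays, 1 per group, are of Tacc3 fl/fl organoids at day 6, Tacc3 wt/wt organoids at day 6, Tacc3 fl/fl organoids at day 4 and Tacc3 wt/wt organoids at day 4. Cultures of all 4 groups received 4OHT (4-hydroxytamoxifen) for 24 hours, the drug given to recombine Apc and Tacc3, the control genotype included. What the labels say of Apc does not settle its state on each array: by the sample descriptions organoids were normal at day 4 and lacked Apc at day 6, but the design text has both genes recombined ahead of either collection. The labels name neither the Cre line nor the number of animals behind a culture.

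Signalling by this family starts when a ligand binds a receptor at the cell surface and the receptors pair up and phosphorylate each other. EGFR, encoded by Egfr, binds EGF, transforming growth factor alpha, amphiregulin, epiregulin, heparin-binding EGF-like growth factor and betacellulin. ERBB2 has no known ligand of its own and acts as a partner, and ERBB3 has a weak kinase and binds neuregulins. In the intestinal crypt these signals drive proliferation through RAS and ERK, EGF and transforming growth factor alpha are made by Paneth cells, and the stem cell protein LRIG1 restrains the receptors.

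All differences are given on the log2(intensity + 16) scale, which understates differences of dim genes, and 1 on that scale is called 2-fold. Where 2 values stand for a day, the fl/fl value precedes the wt/wt value. With 1 array per group no single difference has a replicate check. The test that the design allows is a limma model with additive terms for genotype and for day, fitted over all 11392 genes. It has 1 residual degree of freedom, treats the genotypes as the repeat of the day difference and the days as the repeat of the genotype difference, and shares the spread across genes. Whether the arrays came from separate cultures is not stated, so its p-values measure only the spread between these arrays, which may be technical.

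The arrays of the 2 days differed in more than these genes. The 5' to 3' intensity ratio of the Actb control probe sets was 0.261 and 0.18 at day 6 (fl/fl and wt/wt), against 0.0627 and 0.061 at day 4. For the Gapdh probe sets the day 6 arrays had ratios of 0.524 (fl/fl) and 0.411 (wt/wt), against 0.142 (fl/fl) and 0.208 (wt/wt) on the day 4 arrays. Degraded RNA or short labelled RNA lowers this ratio. The part of these differences in the day comparison was not tested. Median intensities lay between 15.4 and 17.7 on the 4 arrays, with both day 6 medians (15.4 and 15.8) the lower ones. The 95th percentile ran the other way. It was 439.0 (fl/fl) and 424.3 (wt/wt) on day 6 arrays. On day 4 arrays it was 360.6 (fl/fl) and 303.0 (wt/wt). The upper end of the intensities was thus higher on day 6 arrays, and higher for fl/fl than for wt/wt. Values after quantile normalization and centring are therefore given below. The brightest Tacc3 probe set read 49.7 in fl/fl and 166.6 in wt/wt organoids at day 6, and 59.8 in fl/fl and 183.9 in wt/wt organoids at day 4, lower in fl/fl on both days. The floxed exons are not given here, so this probe set may lie outside the deleted part. Epithelial markers were present on every array: Epcam read 4704 and 4789 at day 6, against 1446 and 901 at day 4. Of the 12 mesenchymal markers 4 passed the filter, among them Acta2 (at most 45.6) and Vim (at most 36.9), while Pdgfra and Col1a1 were below it. All 12 together reached 168.1 and 157.2 at day 6, against 223.9 and 269.8 at day 4. The 9 immune markers summed to 1262 and 1661 at day 6, against 2987 and 2014 at day 4, nearly all of it Lyz2, which Paneth cells also express. Of the others, Kit read at most 53.9 and the pan-leukocyte gene Ptprc at most 6.77.

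**Figure D1:**
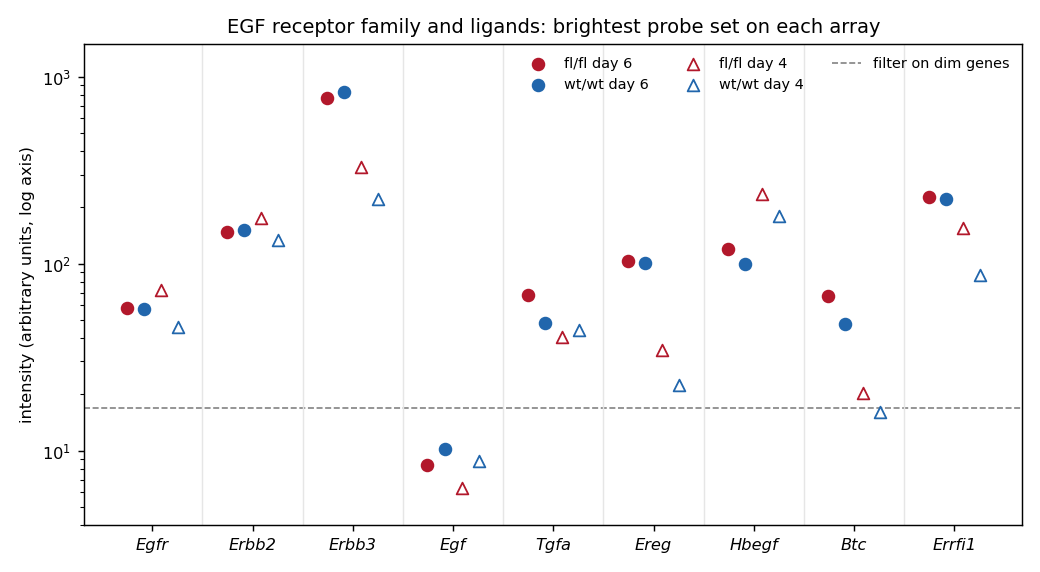
Intensity (log axis) of the brightest probe set of each of the 9 measured genes on the 4 arrays, with 1 point per array and the filter on dim genes at 16.9. Erbb3, Ereg, Btc and Errfi1 are higher on both day 6 arrays than on both day 4 arrays, Hbegf is lower on both, and Egf lies below the filter on all 4.

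The comparison of day 6 with day 4 asks how the family differed between the days at which organoids were collected. Over both genotypes 4 of the 8 genes above the filter rose and 1 fell in the additive limma fit. Erbb3, Ereg, Btc and Errfi1 rose, Hbegf fell on its brightest probe set, and Egfr, Erbb2 and Tgfa did not pass. In that fit 23.5% of all genes were called higher at day 6 and 8.07% lower, so day calls were common on these arrays. These shares depend on the scale. The 3591 genes called in either direction became 4441 after quantile normalization, with 4 of the 8 family genes. Centring the arrays gave 5520, with 5 of the 8. By size alone, 3 of the 8 genes were at least 2-fold higher at day 6 in fl/fl organoids (Erbb3, Ereg and Btc), against 12.2% of all genes, and 0 were 2-fold lower, against 2.9%. In wt/wt organoids 3 of the 8 were at least 2-fold higher (Erbb3, Ereg and Errfi1), against 18.3% of all genes, and 0 were 2-fold lower, against 2.97%. This balance depends on the scale. Over all genes, 1394 were 2-fold higher and 330 lower in fl/fl organoids, but quantile normalization gave 924 and 663, and centring the arrays gave 1021 and 587. In wt/wt organoids 2082 were higher and 338 lower, but quantile normalization gave 1177 and 1094, and centring gave 1201 and 1065. Under quantile normalization 2 family genes were 2-fold higher and 1, Hbegf, was lower in each genotype, and after centring 3 were higher and 1 lower in fl/fl and 2 higher and 1 lower in wt/wt organoids. On the log2(intensity + 16) scale, without further normalization, only Erbb3 and Ereg reached 2-fold in both genotypes, as did 9.37% of all genes. Btc did so too with a pseudocount of 1 in place of 16 (1.68 in fl/fl and 1.52 in wt/wt organoids). The median difference of the 8 genes, by their brightest probe sets, was 0.54 in fl/fl and 0.62 in wt/wt organoids, beside 0.0 and 0.17 for all genes. With the mean of all probe sets of a gene it was 0.11 and 0.36, beside 0.05 and 0.17 for all genes. Of the 16 single probe sets above the filter, 5 were above 0 in fl/fl and 9 in wt/wt organoids, so the family median depends on the choice of probe set.

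Among the receptors, Erbb3 was the one that rose. Its probe set 1434606_at read 771.1 in fl/fl and 826.0 in wt/wt organoids at day 6, against 330.1 in fl/fl and 222.5 in wt/wt organoids at day 4. Both day 6 values thus lay above both day 4 values. The difference was 1.19 in fl/fl and 1.82 in wt/wt organoids, and the fit gave 1.5 ± 0.23 (SE; limma adjusted p = 0.00508; higher at day 6 in both genotypes). After quantile normalization the fl/fl difference was 0.92, short of 2-fold. The second Erbb3 probe set, 1452482_at, was below the filter, with 9.97 and 8.79 at day 6, against 15.3 and 16.3 at day 4. Below the median probe set, it pointed against the brighter one, with differences of -0.27 in fl/fl and -0.38 in wt/wt organoids. With the mean of both probe sets the fitted difference was 0.59 (limma adjusted p = 0.0486).

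Erbb2, the receptor without a ligand, was measured by 1 probe set. It read 148.4 in fl/fl and 151.4 in wt/wt organoids at day 6, against 176.3 in fl/fl and 133.5 in wt/wt organoids at day 4. The day 6 values lay between the day 4 values. The fitted day difference was -0.03, with a 95% interval from -0.57 to 0.51 (limma adjusted p = 0.922), so the fit leaves room for a difference of that size either way. The wt/wt difference of 0.16 was -0.32 after quantile normalization and -0.15 after centring each array, so its sign depends on the scale.

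Egfr was covered by 7 probe sets, 5 of them above the filter, and they did not share a direction. The brightest, 1435888_at, read 58.0 in fl/fl and 57.0 in wt/wt organoids at day 6, against 72.4 in fl/fl and 45.8 in wt/wt organoids at day 4. Its fitted day difference was -0.01 (95% interval -0.54 to 0.53, limma adjusted p = 0.98). Probe set 1432647_at, in contrast, read 23.0 and 25.4 at day 6, against 50 and 72.8 at day 4, with differences of -0.76 in fl/fl and -1.10 in wt/wt organoids. The sign was the same for 1454313_at, with 13.8 and 16.2 at day 6 against 30.0 and 33.3 at day 4. Probe set 1460420_a_at differed by -0.27 and -0.14, and 1424932_at by -0.28 in fl/fl and 0.53 in wt/wt organoids. The remaining 2 probe sets were below the filter, 1451530_at with 14.3 and 11.7 at day 6, against 16.5 and 26.8 at day 4, and 1457563_at with at most 5.88 on any array. In fl/fl organoids all 5 above the filter were thus lower at day 6, whereas in wt/wt organoids 2 were higher and 3 lower. The tables used here do not say to which part or isoform of Egfr each probe set binds. Of 4816 genes with several probe sets above the filter, 46.6% in fl/fl and 46.5% in wt/wt organoids had day differences of both signs. Probe sets past 0.5 in both directions, as those of Egfr were in wt/wt organoids, occurred for 8.18% of these genes in fl/fl and 13.2% in wt/wt organoids.

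Among the ligands Ereg and Btc rose, and Ereg had the larger fitted difference, with an interval (0.90 to 1.93) that overlapped that of Btc (0.67 to 1.53). Ereg encodes epiregulin, which is made as a membrane-bound precursor and binds EGFR. Its probe set 1419431_at read 102.9 in fl/fl and 100.4 in wt/wt organoids at day 6, against 34.6 in fl/fl and 22.5 in wt/wt organoids at day 4. The 2 day 6 arrays were nearly equal and the day 4 arrays were both lower. Differences were 1.23 in fl/fl and 1.60 in wt/wt organoids, and the fit gave 1.42 ± 0.22 (SE; limma adjusted p = 0.00508; higher at day 6 in both genotypes). With a pseudocount of 64 the differences were 0.76 and 0.93, as that scale compresses a gene of this brightness further. With a pseudocount of 1 the fitted difference was 1.83.

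Btc encodes betacellulin, a ligand of EGFR and ERBB4. Probe set 1435541_at read 67.5 in fl/fl and 47.7 in wt/wt organoids at day 6, against 20.4 in fl/fl and 16 in wt/wt organoids at day 4. The day 4 values were close to the filter's 16.9 and the day 6 values clear of it. The difference was 1.20 in fl/fl and just short of 2-fold in wt/wt organoids (1.99-fold on this scale), and the fit gave 1.10 ± 0.18 (SE; limma adjusted p = 0.00642; higher at day 6 in both genotypes). The second probe set, 1421161_at, stayed below the filter with 13.6 and 13 at day 6, against 9.31 and 9.3 at day 4, differences of 0.23 and 0.20 in the same direction. The fitted difference of Btc was 1.6 with a pseudocount of 1, 0.56 with a pseudocount of 64 and 0.65 when its probe sets were averaged. It passed the limma test in each (adjusted p = 0.00333, 0.00568 and 0.0136).

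Ereg and Btc are near neighbours on chromosome 5, in a group of ligand genes that also holds Epgn and Areg. In the order Epgn, Ereg, Areg and Btc, no other protein-coding gene of the RefSeq annotation lies between them. Epgn, the gene of epigen, lay below the filter on all 4 arrays, with 7.87 and 6.24 at day 6, against 7.16 and 7.85 at day 4. The flanking gene Mthfd2l, which encodes a mitochondrial folate enzyme, differed between the days by 0.10 in fl/fl and 0.91 in wt/wt organoids. On the other side Parm1 differed by -0.32 and -0.49, and the next gene, Rchy1, by 1.62 and 1.59. Among the measured neighbours, then, Rchy1 alone was more than 2-fold higher at day 6 in both genotypes.

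Hbegf encodes heparin-binding EGF-like growth factor, and its 2 probe sets disagreed. The brighter, 1418350_at, read 120.4 in fl/fl and 100.0 in wt/wt organoids at day 6, against 235.4 in fl/fl and 179.8 in wt/wt organoids at day 4. Both day 6 values were below both day 4 values. The differences were -0.88 and -0.76, and the fit gave -0.82 ± 0.22 (SE; limma adjusted p = 0.0293; lower at day 6 in both genotypes). After quantile normalization they were -1.11 and -1.22, past 2-fold. Probe set 1418349_at read 87.1 and 84.8 at day 6, against 91.6 and 43.9 at day 4, differences of -0.06 in fl/fl and 0.75 in wt/wt organoids. With the mean of the 2 probe sets the fitted difference was -0.24 (limma adjusted p = 0.365), so the call for Hbegf rests on the brighter one.

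Tgfa encodes transforming growth factor alpha. Its brightest probe set, 1421943_at, read 67.6 in fl/fl and 47.9 in wt/wt organoids at day 6, against 40.6 in fl/fl and 44.2 in wt/wt organoids at day 4. The fl/fl organoids at day 6 stood highest and the other 3 arrays lay close together. The fitted difference was 0.32 ± 0.22 (SE; 95% interval -0.19 to 0.84; limma adjusted p = 0.276). Both other Tgfa probe sets pointed the other way: 1421942_s_at differed by -0.29 and -0.90 and 1450421_at by -0.26 and -0.43. Egf, the gene of the founding ligand, was read by 1 probe set at 8.37 and 10.2 at day 6, against 6.3 and 8.82 at day 4. All 4 Egf values were below the filter, so no difference of Egf was counted or tested. The markers of Paneth cells, which make both ligands in the mouse crypt, summed over 7 genes to 40637 in fl/fl and 44837 in wt/wt organoids at day 6, against 69132 in fl/fl and 50441 in wt/wt organoids at day 4.

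Errfi1 encodes MIG6, a protein that binds the kinase domain of EGFR family receptors and blocks it, and whose transcription is raised by the same pathway. Its probe set 1416129_at read 228.8 in fl/fl and 221.7 in wt/wt organoids at day 6, against 155.4 in fl/fl and 86.8 in wt/wt organoids at day 4. The wt/wt organoids at day 4 stood lowest. The difference was 0.51 in fl/fl and 1.21 in wt/wt organoids, and the fit gave 0.86 ± 0.25 (SE; limma adjusted p = 0.0392; higher at day 6 in both genotypes). This call was near the threshold and was lost after quantile normalization (0.51, adjusted p = 0.0921) and with the mean of its probe sets (0.39, adjusted p = 0.118). The second probe set, 1419816_s_at, differed by -0.09 in both genotypes, at 17.3 to 23.5.

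**Figure D2:**
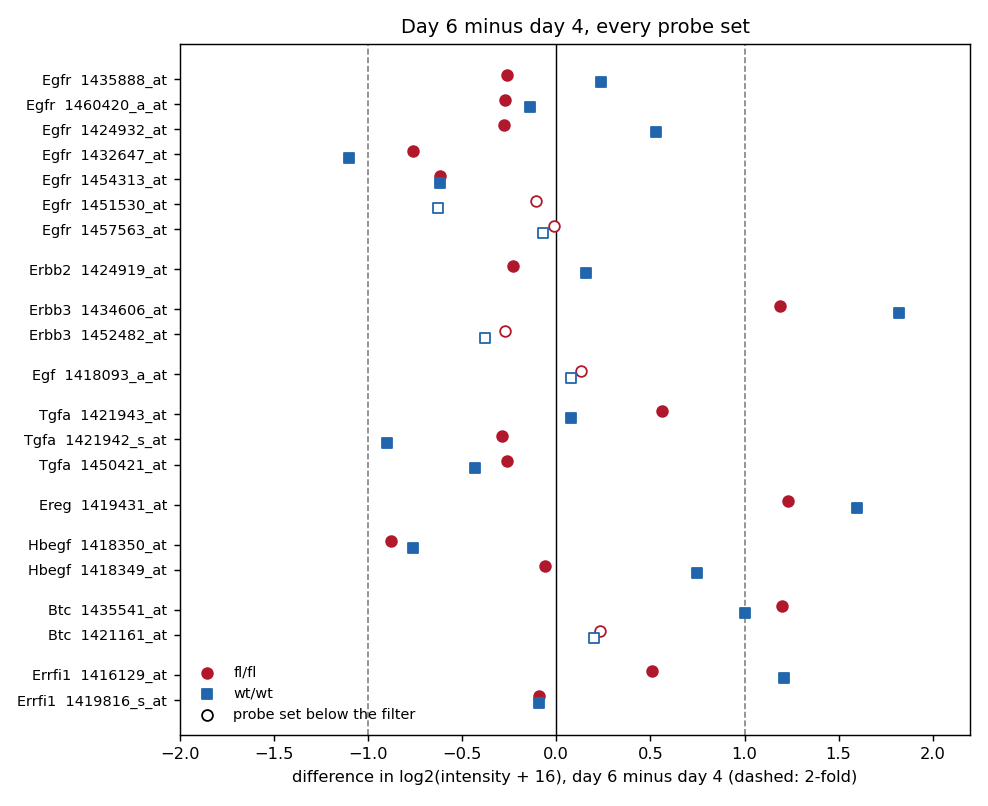
Difference of day 6 minus day 4 in log2(intensity + 16) for each of the 21 probe sets, in fl/fl (circles) and wt/wt organoids (squares), with 2-fold marked by dashed lines and probe sets below the filter drawn open. Erbb3 1434606_at and Ereg 1419431_at pass 2-fold in both genotypes, and the probe sets of Egfr, Erbb3, Tgfa, Hbegf and Errfi1 fall on both sides of 0.

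Promoter sequences are shown for Btc and Errfi1, the genes that rose and have an entry in the promoter table (RefSeq, GRCm38.p6, 250 bases before to 50 after each annotated start). Of the 10 family genes 7 have an entry there, with 9 start sites in all, and Erbb3 and Ereg have none. The sequences were searched on both strands for CTTTGAT (TCF/LEF), TGACGTCA (the cAMP response element), TGANTCA (AP-1) and GGAATG (TEAD), none of which overlapped another, and matches are in capitals. Btc has 1 start, on the minus strand of chr5:91402945-91403244, and Errfi1 has 2, on the plus strand of chr4:150853546-150853845 and chr4:150854820-150855119.
Btc: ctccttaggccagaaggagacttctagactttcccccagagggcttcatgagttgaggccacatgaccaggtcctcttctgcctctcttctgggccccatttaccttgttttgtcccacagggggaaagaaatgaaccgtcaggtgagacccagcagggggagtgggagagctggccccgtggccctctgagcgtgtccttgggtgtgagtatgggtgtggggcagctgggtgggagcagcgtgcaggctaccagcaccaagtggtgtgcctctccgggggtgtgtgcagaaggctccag
Errfi1 first start: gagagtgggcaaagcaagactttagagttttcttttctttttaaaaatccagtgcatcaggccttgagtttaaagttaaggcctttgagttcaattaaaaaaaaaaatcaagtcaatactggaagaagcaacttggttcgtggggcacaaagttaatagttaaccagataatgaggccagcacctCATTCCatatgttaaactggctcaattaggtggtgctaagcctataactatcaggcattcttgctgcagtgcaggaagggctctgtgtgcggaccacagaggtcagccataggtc
Errfi1 second start: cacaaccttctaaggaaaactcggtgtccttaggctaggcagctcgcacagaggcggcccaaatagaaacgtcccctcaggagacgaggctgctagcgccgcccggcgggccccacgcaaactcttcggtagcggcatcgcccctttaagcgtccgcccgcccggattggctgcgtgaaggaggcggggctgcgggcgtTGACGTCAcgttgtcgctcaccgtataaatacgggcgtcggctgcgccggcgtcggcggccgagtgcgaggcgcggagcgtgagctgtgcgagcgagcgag
The window of Btc held none of the 4 motifs. The first Errfi1 window held 1 match to the TEAD letters, which occur in 14.7% of the 32851 promoter windows of the table, and the second held 1 match to the cAMP response element, which occurs in 1.79%. Of the other family genes, the Areg window also held the cAMP response element and the Erbb2 window the TEAD letters, while no family window held TCF/LEF (3.73% of all windows) or AP-1 letters (7.81%). These matches describe letters in a window and no binding was measured.

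The genotype comparison asks whether the family differed where Tacc3 was floxed. None of the 8 genes above the filter did so by 2-fold on either day. At day 6, 0 of 8 were 2-fold higher, against 0.211% of all genes, and 0 were 2-fold lower, against 0.571%. At day 4 the corresponding counts were 0 of 8, against 1.38% of all genes, and 0 of 8, against 0.105%. The additive limma fit called 0 of the 8 and 0 of all 11392 genes (0.0%) by genotype. At an unadjusted p under 0.05 it had 0 of the 8 and 571 of all genes, and 0 and 609 when fitted without an intensity trend. The fitted differences of the family ran from 0.15 (Tgfa, 95% interval -0.37 to 0.67) to 0.39 (Errfi1, 95% interval -0.21 to 0.99). The fit thus leaves room for differences inside those intervals.

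At day 6 the genotypes lay close together, with a median of 0.04 over the 8 genes, beside 0.05 over all genes. Tgfa and Btc had the highest values, 0.39 each, and Erbb3 the lowest, -0.10. At day 4 the median was 0.38, beside 0.15 over all genes, and 7 of the 8 genes were above 0 and above the median of all genes. As that median was itself above 0, most genes were above 0 at day 4. Errfi1 differed by 0.74 at day 4 (155.4 in fl/fl and 86.8 in wt/wt organoids), Erbb3 by 0.54 and Egfr by 0.52, and Tgfa by -0.09. Those 7 of 8 were also above 0 and above the median of all genes after quantile normalization and after centring each array. The median of the 8 genes was then 0.27 and 0.26, beside 0.01 and 0.03 for all genes. With the mean of all probe sets of a gene the count was lower: 6 of 8 were above 0, without Egfr (-0.02) and Tgfa (-0.23), and 5 of 8 were above the median of all genes (0.11). Of the 16 single probe sets above the filter, 10 were above 0 at day 4. The genes share the same 2 arrays, so 7 of 8 is not 7 repeats. By other probe sets, Hbegf 1418349_at differed by 0.84 at day 4 and Egfr 1424932_at by 0.70, while Egfr 1432647_at differed by -0.43 and Tgfa 1421942_s_at by -0.51. At day 4 the Gapdh control probe sets had a 5' to 3' ratio of 0.142 in fl/fl and 0.208 in wt/wt organoids, and its part in these values was not tested.

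**Figure D3:**
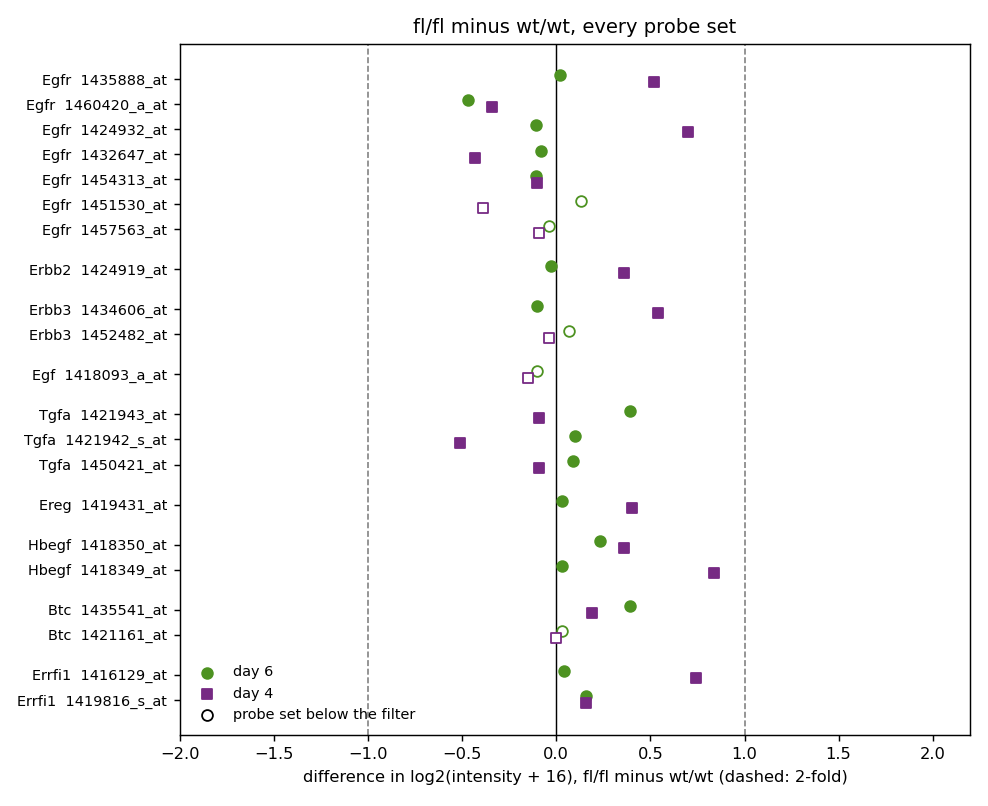
Difference of fl/fl minus wt/wt in log2(intensity + 16) for each of the 21 probe sets at day 6 (circles) and day 4 (squares), with 2-fold marked by dashed lines and probe sets below the filter drawn open. No probe set reaches 2-fold, and the day 4 values spread from -0.51 to 0.84.

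Genes that act with the family were described by 6 lists with 61 genes, of which 55 had a named probe set and 44 passed the filter. Of these 44, 16 rose and 2 fell between the days in the additive limma fit, against 23.5% higher and 8.07% lower over all genes, and 0 were called by genotype. The counts of single lists, given next, rest on 5 to 13 genes each, and are to be read against the same 23.5% and 8.07%. Those shares hold without further normalization, and more of all genes were called after quantile normalization or centring. By size alone Adam10 (1.03) and Lrig1 (1.02) were 2-fold higher in fl/fl than in wt/wt organoids at day 4. The median day difference of the 44 was 0.16 in fl/fl and 0.50 in wt/wt organoids, beside 0.0 and 0.17 for all genes. The remaining receptor and ligands (Erbb4, Nrg1, Nrg2, Nrg3, Nrg4 and Epgn) were all below the filter, with a summed intensity of 42.3 and 38.3 at day 6, against 45.5 and 57.8 at day 4. Neuregulins are the ligands of ERBB3 and ERBB4.

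Of 6 genes above the filter for ligand shedding, the cutting of membrane-bound precursors, 2 rose and 0 fell. Adam9 read 132.3 and 101.1 at day 6, against 18.1 and 15.8 at day 4 (2.0 ± 0.21, limma adjusted p = 0.00251). Adam10, the main sheddase of EGF and betacellulin, read 457.8 in fl/fl and 405.9 in wt/wt organoids at day 6, against 220.3 in fl/fl and 99.4 in wt/wt organoids at day 4 (1.44 ± 0.27, limma adjusted p = 0.00856). Adam17, which sheds most other ligands, was not called, and read 109.5 and 62.5 at day 6, against 110.6 and 118.0 at day 4. It is named here after its values were seen. Rhbdf1, the partner that carries ADAM17 to the surface, differed by -0.78 in fl/fl and 0.65 in wt/wt organoids, and Adam15 by -0.55 and -0.82.

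Of 13 adaptor and turnover genes above the filter, 5 rose and 0 fell, against 23.5% and 8.07% of all genes. Lrig1, the transmembrane protein that promotes receptor degradation, read 581.5 and 723.3 at day 6, against 167.5 and 74.4 at day 4 (2.37 ± 0.32, limma adjusted p = 0.00395). Of the 14 stem cell markers on the same arrays 9 rose, 1 fell and 4 were not called, against the same 23.5% and 8.07% of all genes. All 14 summed to 8366 and 12761 at day 6, against 3749 and 3388 at day 4, with Olfm4 at 3478 and 6534 of the day 6 sums. The exchange factor gene Sos2 (1.43), the ubiquitin ligase gene Cbl (1.18) and the endocytic adaptor gene Eps15 (1.17) rose in the same fit, with adjusted p-values of 0.00791, 0.0139 and 0.0078.

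Of 5 RAS, RAF and MAPK kinase genes above the filter, 1 rose, a share near the 23.5% of all genes. Map2k1, the gene of MEK1, read 228.9 and 161.0 at day 6, against 92.8 and 93.1 at day 4 (0.93 ± 0.24, limma adjusted p = 0.0243). Nras (0.78, adjusted p = 0.0554), Araf (0.36, adjusted p = 0.379) and Map2k2, the gene of MEK2 (-0.53, adjusted p = 0.0802), did not pass. Of 7 PI3K and AKT genes above the filter 2 rose, also near that 23.5%: Pik3r1, a regulatory subunit (0.90, adjusted p = 0.0386), and Pik3ca, the catalytic subunit (0.75, adjusted p = 0.0454). Akt2 (-0.49) and Pik3r2 (-0.45) were not called.

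Targets and feedback inhibitors of ERK changed both ways, with 6 of 13 higher and 2 lower at day 6. Spred2, an inhibitor of RAS activation, read 136.4 and 139.8 at day 6, against 43.5 and 30.7 at day 4 (1.55 ± 0.23, limma adjusted p = 0.0045). Dusp6, the ERK phosphatase, read 155.6 and 108.2 at day 6, against 78.9 and 34.0 at day 4 (1.08 ± 0.23, limma adjusted p = 0.0144). The early response gene Fos rose by 0.93 (adjusted p = 0.0197). Dusp5, a nuclear ERK phosphatase, fell, with 76.0 and 50.4 at day 6, against 124.8 and 121.1 at day 4 (-0.83 ± 0.23, limma adjusted p = 0.0343).

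**Figure D4:**
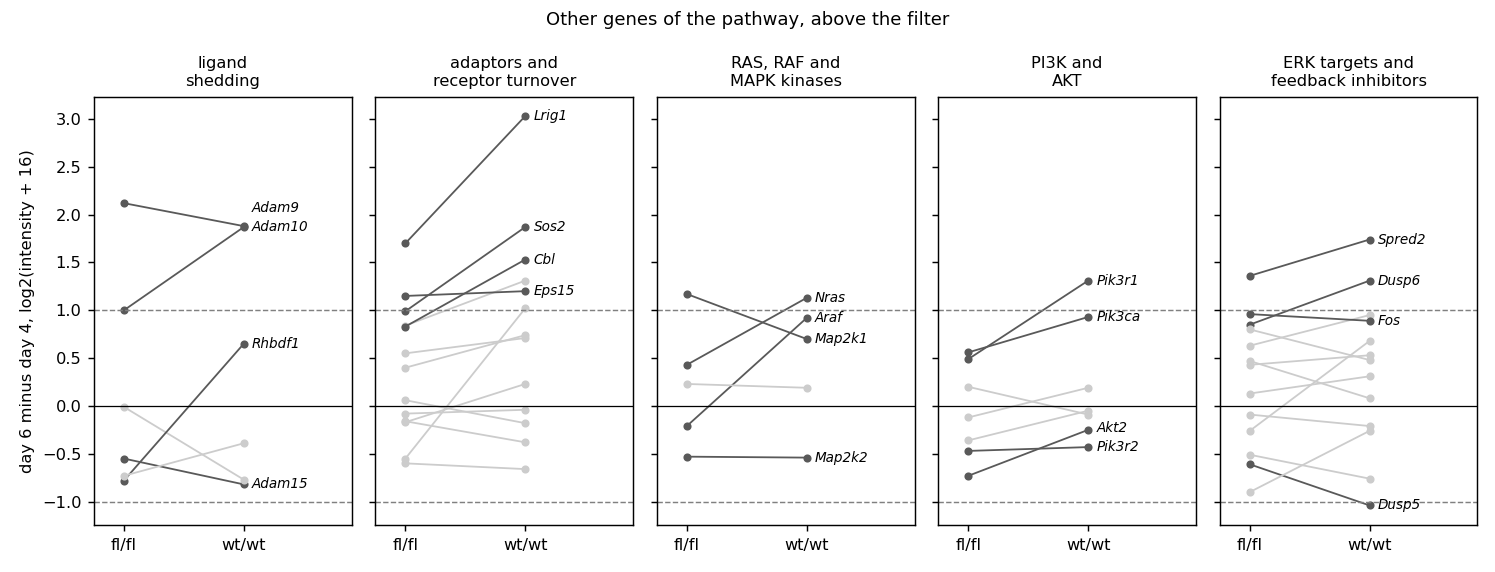
Difference of day 6 minus day 4 in log2(intensity + 16) for the 44 pathway genes above the filter, in 5 groups, with a line from each gene's value in fl/fl to its value in wt/wt organoids. Named genes are dark, and Lrig1 and Adam9 stand highest, while Dusp5 is lowest among those named in its group.

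Cell type markers differed between the days on the same arrays. Their counts come from the additive limma fit, in which 23.5% of all genes were called higher and 8.07% lower. More of all genes were called after quantile normalization or centring. Enterocyte markers summed over 13 genes to 12699 in fl/fl and 8531 in wt/wt organoids at day 6, against 1619 in fl/fl and 1428 in wt/wt organoids at day 4, and 10 of the 12 above the filter rose. Of 8 epithelial markers 4 rose and 0 fell. Lower at day 6 were 5 of 7 Paneth cell, 3 of 8 goblet cell and 3 of 6 fetal and regenerative markers, and none of these rose. Of the 4 mesenchymal and 4 immune markers above the filter, 0 rose, and 1 fell, which was Lyz2, also a Paneth cell marker. In bulk RNA, fewer cells of a type and less RNA per cell cannot be told apart. The part of these shifts in the differences of Erbb3, Ereg, Btc, Errfi1 and Hbegf was not tested.

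Genes with a like profile over the 4 arrays were also listed. For each family gene that spanned at least 2-fold, the 3 genes with the nearest profile were taken by root mean square distance between log2 values centred on their own mean. Those nearest to Erbb3 were Scfd1 (0.0329), Tmtc4 (0.0335) and Hdac2 (0.0356). Nearest to Ereg were Btbd3 (0.011), Zcchc14 (0.0302) and Psma5 (0.0322), and nearest to Btc were Ids (0.0233), Sav1 (0.0258) and Echs1 (0.0325). Errfi1 was nearest to Psme4 (0.0224), Dtx3l (0.0275) and Gpkow (0.0277), and Hbegf to Phgdh (0.0153), Tspan4 (0.0248) and Otub1 (0.0398). Between 64 and 154 genes lay within 0.1 of each profile, so likeness over so few arrays is shared by many genes.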

How the data were processed

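Total RNA of the 4 organoid samples was labelled from 100 ng each by 3' in vitro transcription and hybridised to Affymetrix arrays, per the labels' protocols. The deposited values are linear intensities, 1 per probe set and array, a unit taken from their range. How the authors summarised and scaled them is not given in the sources here. Arrays limit the precision by their number, 1 per group.

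Analysis used log2(intensity + 16) of the deposited intensities, with no further normalization. Of 45101 probe sets, 34958 have 1 gene symbol in the platform's table, 932 have several and 9211 are not listed. RefSeq names (GRCm38.p6), matched on Entrez ID for 34754 of them, replaced older symbols. Each gene took its brightest probe set by mean log2 value, and genes at or above the median probe set (5.04 on that scale) were kept. Differences were counted at 2-fold, and limma 3.58.1 in R 4.3.3 fitted genotype and day additively with an intensity trend (prior degrees of freedom 6.16), with Benjamini-Hochberg adjustment over 11392 genes and calls at an adjusted p under 0.05. The fit was tested on simulated data with normal noise and a day difference equal in both genotypes. That simulation did not check the additive assumption. Fitted values are differences with standard errors. The family genes, the pathway and marker lists and the motifs were chosen with earlier results of these data known. Text names all 10 family genes, up to 4 genes per pathway list by mean absolute day difference, and 3 genes of nearest profile for each family gene spanning 2-fold. Alternatives were pseudocounts of 1 and 64, quantile normalization, centring each array, the mean of all probe sets, no x_at and s_at probe sets, no filter, and a fit without a trend.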

Additional observations from a re-analysis of the deposited data

Results flagged for a closer look

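In 5 cases a difference had opposite signs at the levels of the other factor. Only the brightest probe set of each gene was counted here, without further normalization. The difference between the differences was not tested, because with 1 array per group nothing is left to test it against. Between the days, Egfr differed by -0.26 in fl/fl and 0.24 in wt/wt organoids (-0.50 between them), and Erbb2 by -0.23 in fl/fl and 0.16 in wt/wt organoids (-0.39). Between the genotypes, Erbb2 differed by -0.03 at day 6 and 0.36 at day 4 (-0.39), Erbb3 by -0.10 at day 6 and 0.54 at day 4 (-0.63), and Tgfa by 0.39 at day 6 and -0.09 at day 4 (0.48). Both day cases depend on the scale. After quantile normalization Egfr differed by -0.40 in fl/fl and -0.04 in wt/wt organoids, and Erbb2 by -0.47 and -0.32. Centring also left both genes below 0 in both genotypes. The genotype differences of Erbb3 and Tgfa kept opposite signs in both settings.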

How the results depend on the processing

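The 5 day calls kept their direction under every alternative run. Errfi1 was not called after quantile normalization, nor Errfi1 and Hbegf with the mean of probe sets, when 3 genes were called. In each genotype 1 family gene, in place of 3, was 2-fold between the days with pseudocount 64 and with the mean of probe sets. Pseudocount 1 gave 3 in fl/fl and 4 in wt/wt organoids. Over all genes, the 1724 (fl/fl) and 2420 (wt/wt) 2-fold day differences became 856 and 1201 with pseudocount 64 and 927 and 1299 with the mean of probe sets. The 89 genotype differences at day 6 became 161 with pseudocount 1, 37 with pseudocount 64 and 45 with the mean. The 169 at day 4 became 523, 27 and 75, and 101 after centring. Their 157 higher and 12 lower were 114 and 39 after quantile normalization and 82 and 19 after centring. The remaining causes were not tested. The genotype fit called 0 family genes under each alternative, and between 0 and 22 of all genes. No pairing beyond the genotype and day terms of the fit was possible, because the labels give no replicate numbers and each group has 1 array. Leaving out an array would leave the fit no residual degree of freedom. The signal of Egf, Erbb4, the neuregulins and Epgn, below the filter, limits what can be said of them.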
